A study of Mus musculus with 6 samples.

Results

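The aryl hydrocarbon receptor and genes that report its activity were followed across RNA sequencing libraries of B16F10, a pigmented mouse melanoma cell line. The members were the 6 rows of the deposited gene table named Ahr, Arnt, Ahrr, Cyp1a1, Cyp1b1 and Tiparp, out of 51912 rows. By its title, the study concerns ANXA10, a member of the annexin family of membrane-binding proteins, in metastasis of melanoma. Of the 6 libraries, 3 came from wild-type cells (WT, replicates 1, 2 and 3) and 3 from cells labelled as an ANXA10-/- knockout (A10KO, replicates 1, 13 and 14), with no treatment, age or time named for either group. The design text speaks of 1 WT and 1 A10KO cell line. What the replicate numbers stand for (clones, cultures or repeat preparations) is not stated, so errors and p-values cover only library-to-library spread, part or all of which may be technical.

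The receptor, AHR, is a transcription factor that waits in the cytosol in a complex with HSP90 and p23. When it binds a ligand, such as a dioxin, a planar aromatic pollutant or a product of tryptophan, it moves to the nucleus and pairs with ARNT on DNA that holds the core GCGTG. Cyp1a1, Cyp1b1, Tiparp and Ahrr are its best known target genes, and the products of Tiparp and Ahrr act back on the receptor as brakes. In skin, the receptor takes part in pigment cell responses to light and to chemicals.

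Values are in TPM, a measure of relative transcript abundance in which values are scaled for transcript length, so levels of different genes can be set side by side. Library depth is unknown because TPM keeps no record of it, and no counting interval is given. The sums of the libraries lay between 969834 and 985045 TPM, and 11889 to 12236 genes per library reached 1 TPM. Over 11932 genes, the SD of the log2 ratio between libraries was 0.441 to 0.577 for WT pairs and 0.754 to 0.914 for A10KO pairs. Between a WT and an A10KO library it was 0.615 to 0.876. A10KO libraries thus differed more among themselves than WT libraries did, while the main fit takes the same variance for both groups. Melanocyte lineage markers summed to between 9190 and 11600 TPM over all 6 libraries, with 12 of 13 markers tested and Kit at 0 in 5 libraries. Keratinocyte markers summed to at most 0.34 TPM, with Krt1, Krt10, Trp63, Dsg3, Ivl and Lor at 0 throughout. Anxa10 was listed at 0 TPM in all 6 libraries, so the targeted gene gave no check of the labels. These are bulk samples, in which fewer cells that express a gene and less RNA per cell cannot be told apart.

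Of the 6 members, 1 stood apart between the groups, where 17.1% of all tested genes had groups without overlap in either direction. Cyp1a1, which encodes the P450 enzyme that oxidises planar aromatic chemicals, was near 1 TPM in WT and between 3.94 and 6.92 TPM in A10KO. The other members overlapped between the groups. Ahr itself, Arnt, Ahrr and Tiparp had lower means in A10KO, and Cyp1b1 was under 1 TPM in every library. Because the members were proposed with the values of this comparison known, their differences are given as a description without p-values, and the counts of calls that follow are no evidence about them.

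**Figure D1:**
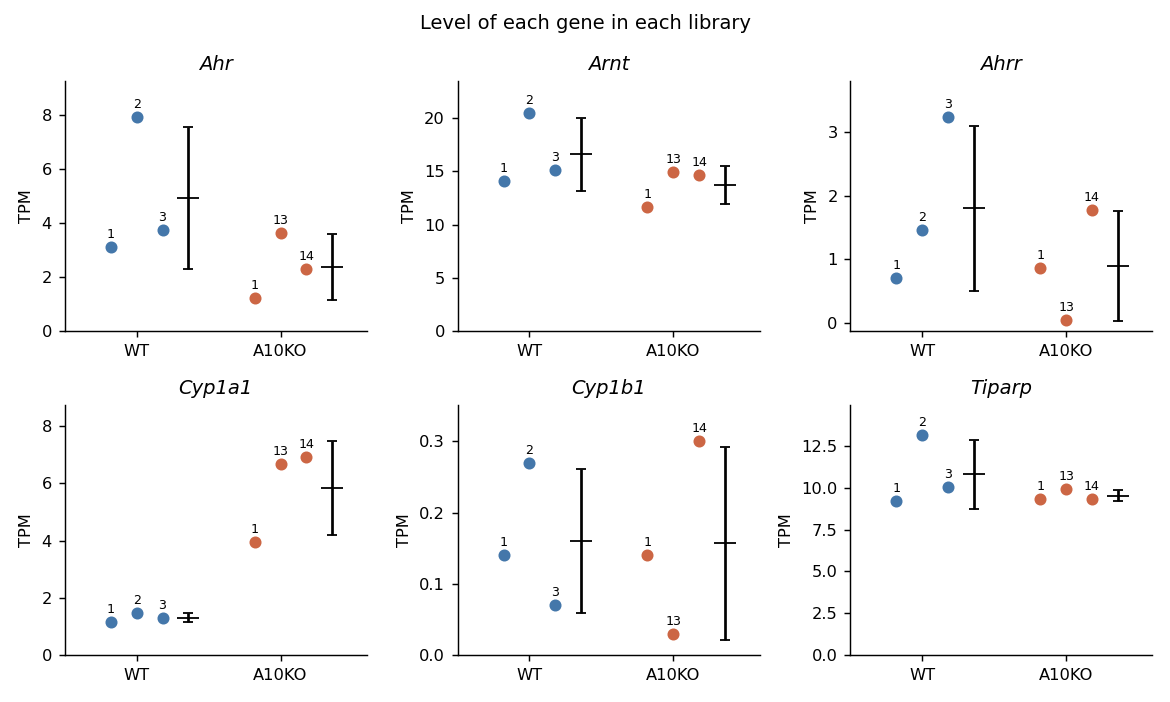
TPM (y axis, 1 scale per panel) of the 6 genes in the 3 WT and 3 A10KO libraries. Points are libraries with their replicate numbers, and bars show the mean ± SD of each group. For Cyp1a1 the A10KO points, from 3.94 to 6.92 TPM, all lie above the WT points, which reach 1.47 TPM. In the other panels the groups overlap.

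The receptor gene, Ahr (ENSMUSG00000019256), is protein coding and lies on the minus strand of GRCm38 chromosome 12, from 35497974 to 35535038. Its level was 3.12, 7.91 and 3.72 TPM in WT replicates 1, 2 and 3, and 1.21, 3.63 and 2.29 TPM in A10KO replicates 1, 13 and 14. The highest value, in WT replicate 2, was 2.31 times the mean of the other WT libraries, and A10KO replicate 13 lay between WT replicates 1 and 3. Group means, with the SD over 3 libraries as for every mean that follows, were 4.92 ± 2.61 TPM for WT and 2.38 ± 1.21 TPM for A10KO. On the log2(TPM + 1) scale used for all differences below, A10KO minus WT was -0.79 (SE 0.38). Without WT replicate 2 the WT mean was 3.42 TPM and the difference -0.45, and without A10KO replicate 1 the difference was -0.51.

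Arnt (ENSMUSG00000015522), the partner that AHR shares with the hypoxia-inducible factors, lies on the plus strand of chromosome 3 from 95434388 to 95497240. It was the most abundant member, with 14.11, 20.5 and 15.13 TPM in WT replicates 1, 2 and 3 and 11.63, 14.89 and 14.6 TPM in A10KO replicates 1, 13 and 14. WT replicate 2 was again the highest library, and the others lay between 11.63 and 15.13 TPM. The means were 16.6 ± 3.43 and 13.7 ± 1.80 TPM, with a difference of -0.25 (SE 0.19) on the log2 scale. Without WT replicate 2 this difference was -0.09, and without A10KO replicate 1 it was -0.14. The ratio of Ahr to Arnt ran from 0.221 to 0.386 in WT and from 0.104 to 0.244 in A10KO, so the receptor transcript was below its partner in each library.

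Ahrr (ENSMUSG00000021575) encodes the receptor's repressor, which competes with AHR for ARNT, and lies on the minus strand of chromosome 13 from 74211118 to 74292331. Its values were 0.71, 1.46 and 3.23 TPM in WT replicates 1, 2 and 3, and 0.86, 0.05 and 1.77 TPM in A10KO replicates 1, 13 and 14. Both groups were wide, and the lowest library, A10KO replicate 13, was far under the next. The means were 1.80 ± 1.29 and 0.893 ± 0.860 TPM, with a difference of -0.57 (SE 0.45). At such low levels the added 1 TPM shrinks differences, and with 0.1 TPM added in its place the value was -1.32. Without A10KO replicate 13 it was -0.20, and without WT replicate 3 it was -0.22.

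Cyp1a1 (ENSMUSG00000032315) lies on the plus strand of chromosome 9 from 57687928 to 57703824, and is protein coding. The WT libraries held 1.14, 1.47 and 1.29 TPM in replicates 1, 2 and 3, and the A10KO libraries 3.94, 6.67 and 6.92 TPM in replicates 1, 13 and 14. Every A10KO library was above every WT library, and A10KO replicate 1 was the lowest of its group. The WT mean was 1.30 ± 0.165 TPM and the A10KO mean 5.84 ± 1.65 TPM, a ratio of 4.49. The log2 difference was 1.54 (SE 0.25), the 27th highest among 12068 tested genes. With 0.1 TPM added in place of 1, it was 2.05.

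GENCODE gives Cyp1a1 2 coding transcripts with different first exons, whose start sites lie 9685 bases apart. The gene total does not tell which of these starts was used. Cyp1a2, its neighbour and closest relative, stood at 0.17 TPM or less in each library. Mitochondrially encoded transcripts took 6.32% to 6.56% of TPM in WT and 7.93%, 14.7% and 7.37% in A10KO replicates 1, 13 and 14, so they were also higher in the A10KO libraries. Of the 10 tested mitochondrial genes all were highest in A10KO replicate 13, where Cyp1a1 was at 6.67 TPM, near its highest value, 6.92 TPM in replicate 14. With those transcripts removed and the rest rescaled, the Cyp1a1 difference was 1.62. Hepatocyte markers, listed because liver is rich in inducible Cyp1a1, summed to 11.7 to 13 TPM in WT and 10.6 to 13.9 TPM in A10KO, overlapping ranges. Of the 6, 4 were tested, and 1 was higher in A10KO without overlap, against 5.61% of all tested genes. None of the 6 was at 0 throughout. Whether mitochondrial or liver transcripts had a part in the Cyp1a1 difference was not tested.

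Cyp1b1 (ENSMUSG00000024087), a related P450 gene on the minus strand of chromosome 17 from 79701537 to 79715061, stayed close to 0. It was listed at 0.14, 0.27 and 0.07 TPM in WT replicates 1, 2 and 3 and at 0.14, 0.03 and 0.3 TPM in A10KO replicates 1, 13 and 14. The means, 0.16 ± 0.101 and 0.157 ± 0.136 TPM, were almost equal and the groups overlapped. No library reached 1 TPM, so Cyp1b1 did not enter the fit and has no log2 difference.

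Tiparp (ENSMUSG00000034640) encodes a mono-ADP-ribosyltransferase that marks AHR for loss, and lies on the plus strand of chromosome 3 from 65528410 to 65555518. It varied least of the 5 tested members, at 9.21, 13.16 and 10.06 TPM in WT replicates 1, 2 and 3 and 9.33, 9.94 and 9.35 TPM in A10KO replicates 1, 13 and 14. Apart from WT replicate 2, the highest, the libraries lay between 9.21 and 10.06 TPM. The means were 10.8 ± 2.08 and 9.54 ± 0.347 TPM, and the difference was -0.15 (SE 0.18), or -0.01 without WT replicate 2. A gene on the opposite strand, 4931440P22Rik, overlaps Tiparp over 970 bases and stood at 0.39 to 0.88 TPM. Since no strand setting is given in the sources used here, reads from that overlap cannot be assigned to either gene with certainty. Arnt shares 352 bases with Gm42672 on the same strand, at 0 to 1.55 TPM, where strand could not separate the reads. Ahr shares 618 bases with AC159635.2 on the opposite strand, at 0 TPM throughout.

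The order of the members by level changed at Cyp1a1. In WT the means ran from Arnt through Tiparp, Ahr, Ahrr and Cyp1a1 to Cyp1b1. In A10KO they ran from Arnt through Tiparp, Cyp1a1, Ahr and Ahrr to Cyp1b1. In WT the lowest Ahr value, 3.12 TPM, was above the highest Cyp1a1 value, 1.47 TPM, whereas in A10KO the lowest Cyp1a1 value, 3.94 TPM, was above the highest Ahr value, 3.63 TPM. Ahr and Ahrr overlapped in both groups, and Ahrr and Cyp1a1 overlapped in WT. The ratio of Cyp1a1 to Ahr was 0.365, 0.186 and 0.347 in WT replicates 1, 2 and 3 and 3.26, 1.84 and 3.02 in A10KO replicates 1, 13 and 14.

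Counts over the members were small. A gene needed 1 TPM in 3 or more libraries to be tested, and 5 of the 6 members entered the limma fit, all but Cyp1b1. Ahrr met this in exactly 3 libraries, of both groups. Of the 5, 0 were called at a Benjamini-Hochberg adjusted p under 0.05, where 0.0414% of all tested genes were (0.0166% higher and 0.0249% lower in A10KO), and 1 had groups that did not overlap with A10KO higher, against 5.61% of all tested genes. Lower groups without overlap were seen for 0 of the 5 and for 11.5% of all tested genes. Over all 12068 tested genes, 5255 had differences above 0 and 6813 below 0, which is the background for the counts of direction in the gene lists below. The median difference of the 5 was -0.25, beside -0.04 over all tested genes. As the members were chosen on this comparison, nothing is read from these counts.

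**Figure D2:**
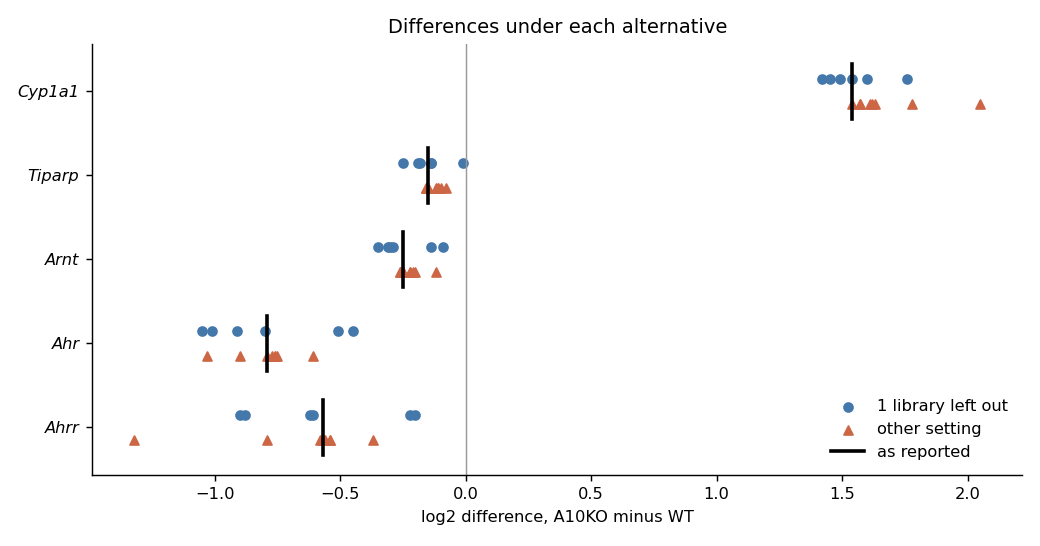
Log2 difference, A10KO minus WT (x axis), of the 5 tested genes as reported (black bar), with 1 library left out (circles) and under other settings (triangles). Cyp1a1 stays between 1.42 and 2.05, and the other genes stay below 0, with Tiparp reaching -0.01.

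The 4 target genes are known to share a regulator but differed in level and in their difference between groups, so the DNA just before their start sites is shown. The sequences come from RefSeq on GRCm38.p6, written 5′ to 3′ on the gene's strand and ending before the start site. Distances below count from the RefSeq start, and motifs were counted in the full 250 bases before it, of which 213 are printed for Tiparp. Stretches that GENCODE places in an exon of the gene were left out. Capitals mark GCGTG, the core that AHR and ARNT bind, or its reverse complement CACGC. A promoter entry was found for 5 of the 6 members, all but Ahr.
Cyp1a1, chr9:57697363-57697612, plus strand: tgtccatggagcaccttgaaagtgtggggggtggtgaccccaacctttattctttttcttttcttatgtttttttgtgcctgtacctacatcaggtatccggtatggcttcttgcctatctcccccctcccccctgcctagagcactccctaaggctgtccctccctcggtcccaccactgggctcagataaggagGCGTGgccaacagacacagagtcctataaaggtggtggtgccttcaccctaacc
Cyp1b1, chr17:79715062-79715311, minus strand: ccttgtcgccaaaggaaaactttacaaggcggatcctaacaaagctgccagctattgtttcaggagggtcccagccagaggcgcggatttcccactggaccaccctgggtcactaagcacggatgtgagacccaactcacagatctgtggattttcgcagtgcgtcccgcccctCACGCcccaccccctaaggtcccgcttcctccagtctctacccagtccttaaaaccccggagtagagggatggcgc
Ahrr, chr13:74292332-74292581, minus strand: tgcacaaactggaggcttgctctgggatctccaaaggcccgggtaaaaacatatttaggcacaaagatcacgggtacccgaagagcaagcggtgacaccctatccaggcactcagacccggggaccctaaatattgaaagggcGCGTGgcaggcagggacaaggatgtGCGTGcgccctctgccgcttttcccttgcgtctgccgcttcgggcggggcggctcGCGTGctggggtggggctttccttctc
Tiparp, chr3:65528197-65528409, plus strand: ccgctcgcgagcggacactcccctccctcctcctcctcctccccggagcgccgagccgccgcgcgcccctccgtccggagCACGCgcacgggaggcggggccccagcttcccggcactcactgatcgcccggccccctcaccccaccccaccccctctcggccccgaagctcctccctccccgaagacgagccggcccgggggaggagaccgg

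Each of these windows, and that of Arnt, held the core on at least 1 strand. Cyp1a1 had 1 core, which begins 54 bases before the start site, and a TATAAA box 30 bases before it. Ahrr had 3 cores, beginning 107, 82 and 27 bases before the start, and the last of these sits in the longer form TNGCGTG. Cyp1b1 and Tiparp had 1 core each, on the opposite strand, at 76 and 170 bases. Among 32851 RefSeq promoter windows of the same 250 bases, 28.2% held GCGTG on either strand, 2.77% held it at least 3 times, 4.10% held TNGCGTG, which contains GCGTG, and 7.59% held TATAAA on the gene's own strand (12.4% on either strand). A match describes the letters only, and the known enhancer of Cyp1a1 lies farther upstream than the window reaches.

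Transcripts of the proteins that hold the receptor in the cytosol were abundant. All 5 genes listed were tested and 0 were called, with a median difference of -0.03. Only 0.0414% of all tested genes were called, so nothing is read from 0 calls in this or any set of genes below. Hsp90ab1, an HSP90 chaperone, had a WT mean of 1730 ± 64.0 TPM and an A10KO mean of 1840 ± 196 TPM (means are given in this order from here on), and Hsp90aa1 at 702 ± 9.32 and 644 ± 123. Ptges3, the co-chaperone p23, stood at 119 ± 0.945 and 122 ± 9.88, and Src, a kinase found in the complex, at 35.5 ± 2.19 and 35.0 ± 9.12. All 5 overlapped between the groups, where 17.1% of all tested genes did not. Adjusted p-values from limma for these genes ran from 0.816 to 0.958.

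Genes for receptor export and degradation also gave 0 calls, among 8 tested, with a median of 0.02. Ddb1 and Cul4b, parts of a cullin ubiquitin ligase, stood at 184 ± 5.10 and 178 ± 3.96 TPM and at 14 ± 1.45 and 15.5 ± 3.99 TPM. Stub1, a ligase that works with HSP90, stood at 124 ± 3.64 and 104 ± 15.5 TPM, a difference of -0.27 (SE 0.14, limma adjusted p = 0.628), or -0.15 without A10KO replicate 13. It was the only gene of the 8 whose groups did not overlap, with A10KO lower, against 11.5% of all tested genes. Rbx1, the ring subunit of the ligase, was at 78.7 ± 1.40 and 86.0 ± 23.4 TPM. Psmd1, a proteasome subunit, was at 105 ± 8.32 and 119 ± 26.5 TPM.

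Coactivators and corepressors had higher values in A10KO in 11 of 14 tested genes (5255 of 12068 over all tested genes), with 0 called and a median of 0.15. Smarca4, the motor of a chromatin remodelling complex, stood at 64.4 ± 2.96 and 83.3 ± 10.4 TPM (difference 0.36, SE 0.13, limma adjusted p = 0.503). The list held 3 genes with A10KO higher and no overlap, against 5.61% of all tested genes, among them Smarca4 and the acetyltransferase gene Crebbp, which was chosen after its values were seen and stood at 3.1 ± 0.08 and 4 ± 0.797 TPM. A10KO replicate 13 was the highest of the 6 libraries for 11 of the 14 genes, against 31.5% of all tested genes. It held 22.73 TPM of Ncoa1, a p160 coactivator that stood at 7 to 11.85 TPM in the other libraries. Without that library the list's median was -0.12. Ncoa1 had means of 9.39 ± 2.43 and 13 ± 8.4 TPM, Ncoa2 of 7.03 ± 1.11 and 9.43 ± 4.92, Ncor1 of 65.7 ± 10.1 and 74.0 ± 28.6, and Rela, an NF-kappaB subunit that meets AHR, of 32.8 ± 2.36 and 26.8 ± 4.90.

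Other members of the bHLH-PAS family, to which AHR and ARNT belong, were mostly silent. Of 13 listed, 8 were under 1 TPM in every library, among them Arnt2, the close relative of Arnt, at 0.09 TPM or less, and Sim1, at 0 throughout. The 5 tested genes gave 0 calls and a median of 0.36. Arntl2, a clock factor, was at 5.21, 6.57 and 5.51 TPM in WT and at 19.91, 12.67 and 5.25 TPM in A10KO replicates 1, 13 and 14 (difference 0.85, SE 0.41, limma adjusted p = 0.597), so the groups overlapped through replicate 14. The difference was 0.46 without A10KO replicate 1 and 1.33 without A10KO replicate 14. Its means were 5.76 ± 0.715 and 12.6 ± 7.33 TPM. Clock stood at 3.90 ± 0.620 and 6.39 ± 3.17 TPM, and Arntl at 6.29 ± 1.20 and 7.58 ± 0.663. Hif1a, the hypoxia-inducible subunit that takes ARNT as its partner, stood at 26.9 ± 5.42 and 39.8 ± 27.3 TPM, with 71.06 TPM in A10KO replicate 13. Without that library its difference turned from 0.36 to -0.15.

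Since HIF factors use the same ARNT, their regulators and targets were set beside the receptor genes. The 15 tested genes gave 0 calls, with 12 below 0, against 6813 of 12068 over all tested genes, and a median of -0.34. WT replicate 2 was the highest of the 6 libraries for 11 of the 15, against 24% of all tested genes, and it was also the highest for Ahr, Arnt and Tiparp. Bnip3, a mitophagy gene, was at 256.13 TPM in that library and at 74.91 and 94.38 TPM in WT replicates 1 and 3, with 110.1, 101.9 and 51.16 TPM in A10KO replicates 1, 13 and 14. Pdk1, a kinase that holds pyruvate back from mitochondria, was at 50.96 TPM there and at 12.71 and 19.24 TPM in WT replicates 1 and 3. Without WT replicate 2 the list's median was -0.02, and the difference of Bnip3 was -0.02. Ankrd37 stood at 13.3 ± 8.58 and 5 ± 4.45 TPM, Ndrg1 at 71.0 ± 33.2 and 42.7 ± 9.67, and the glycolytic genes Ldha and Pgk1 at 2370 ± 549 and 1700 ± 469 and at 2060 ± 488 and 1540 ± 226. Hif1an, an inhibitor of HIF that was chosen after its values were seen, was the 1 gene of the 15 without overlap, at 9.9 ± 0.632 and 12.7 ± 2.01 TPM. A10KO was higher without overlap for 5.61% of all tested genes.

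**Figure D3:**
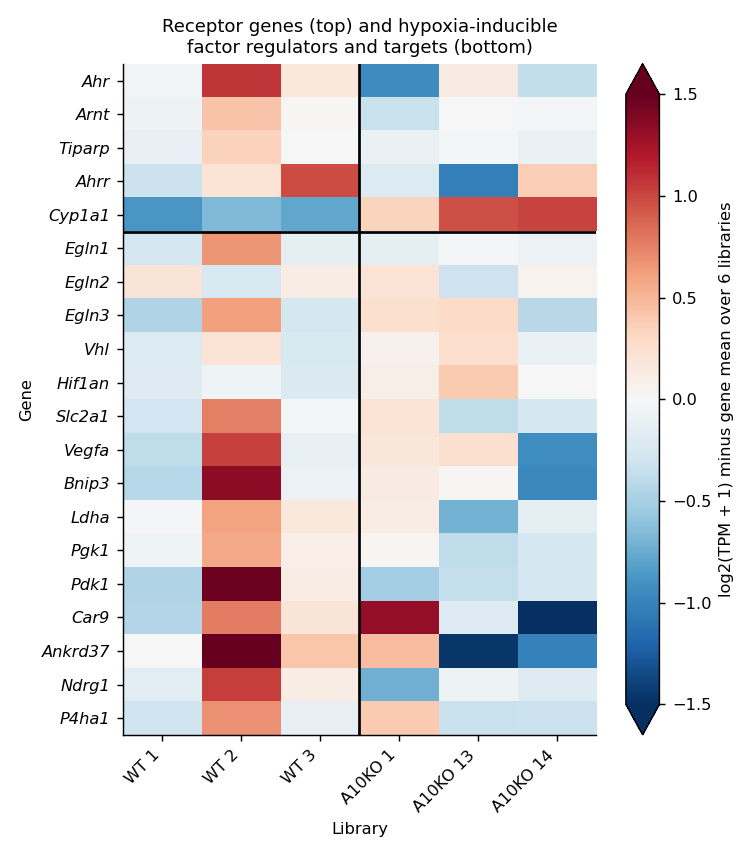
Colour gives log2(TPM + 1) minus the gene's mean over the 6 libraries, by library (x axis) and gene (y axis), for the 5 tested receptor genes above the line and 15 hypoxia-inducible factor regulators and targets below it. WT replicate 2 is the highest library for 11 of the 15 lower genes and for Ahr, Arnt and Tiparp, and Cyp1a1 separates the groups.

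Further genes reported as receptor targets were mostly near 0. Of 24 listed, 15 were under 1 TPM in every library, with Areg, Ereg, Serpinb2, Vav3 and Scin at 0 throughout, and 8 were tested. Among these 0 were called and 0 had groups without overlap, against 17.1% of all tested genes, and the median was 0.04. Nqo1, the quinone reductase of the classical AHR gene set, was not tested, with 0.48, 0.27 and 0.45 TPM in WT and 2.6, 0.04 and 0.11 TPM in A10KO replicates 1, 13 and 14. Its value in A10KO replicate 1 was the highest and the others of that group lay under the WT libraries, whereas Cyp1a1 was lowest of its group in replicate 1. Aldh3a1, another gene of that set, was at 0.04 TPM or less.

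The tested targets with the largest differences varied widely within groups. Bach2, a repressor of the BTB family, was at 6.43, 27.16 and 10.74 TPM in WT replicates 1, 2 and 3 and at 63.43, 21.73 and 19.42 TPM in A10KO replicates 1, 13 and 14 (difference 1.20, SE 0.58). WT replicate 2 exceeded A10KO replicates 13 and 14. The difference was 0.68 without A10KO replicate 1 and 0.77 without WT replicate 1. Selenbp1, a selenium-binding protein gene, stood at 66.5 ± 32.1 and 34.0 ± 10.1 TPM (difference -0.88, SE 0.34, limma adjusted p = 0.522, the lowest of the list). WT replicate 2, at 102.72 TPM, was its highest library, and without it the difference was -0.52. Gsta1 stood at 48.2 ± 2.79 and 64.6 ± 37.0 TPM and Gsta2 at 10.1 ± 2.80 and 13.3 ± 13.7. These are near-identical glutathione transferase genes, so reads could have been split between them in either way. Slc7a5, an amino acid transporter that also carries tryptophan products, stood at 206 ± 38.6 and 211 ± 12.5 TPM, and Nfe2l2, the NRF2 factor, at 56.9 ± 4.38 and 59.3 ± 15.3.

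Enzymes of tryptophan metabolism, which make or remove ligands of the receptor, differed widely in level. Of 15 listed, 9 were under 1 TPM in every library, among them Ido1, at 0 in 5 of 6 libraries, and Tdo2, at 0.24 TPM or less. Of the 5 tested 0 were called, with a median of -0.24. Il4i1, an amino acid oxidase that yields AHR ligands, was at 1.05, 3.08 and 1.83 TPM in WT replicates 1, 2 and 3 and at 0.71, 0.86 and 0.9 TPM in A10KO replicates 1, 13 and 14. It was lower in A10KO without overlap (11.5% of all tested genes were), with a difference of -0.66 (SE 0.29, limma adjusted p = 0.568), or -0.40 without WT replicate 2. Il4i1 reached 1 TPM in the WT libraries alone, so it entered the fit only through the group where it was high. Nothing is therefore read from its separation or p-value. Maoa, a monoamine oxidase, was at 36.4 ± 0.429 and 47.1 ± 15 TPM, higher in A10KO without overlap (5.61% of all tested genes were) by the narrow step from 36.88 to 37.08 TPM. It held 64.37 TPM in replicate 13, and without that library the difference was 0.08 in place of 0.32. Kyat1 and Kyat3, kynurenine aminotransferases, stood at 6.66 ± 1.59 and 4.93 ± 1.25 TPM and at 11.5 ± 0.834 and 13.8 ± 1.71 TPM. Afmid, which makes kynurenine, stood at 10.6 ± 1.54 and 8.98 ± 2.26 TPM.

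Partners of P450 enzymes and phase 2 enzymes gave 0 calls among 13 tested, with a median of -0.02. Cyb5r3, a cytochrome b5 reductase, stood at 169 ± 12.7 and 140 ± 16.9 TPM and Gstm1, a glutathione transferase, at 53.7 ± 6.42 and 33.8 ± 9.08 (difference -0.68, SE 0.22, limma adjusted p = 0.436). These were the 2 genes of the 13 whose groups did not overlap, both lower in A10KO, against 11.5% of all tested genes. Hmox1, haem oxygenase, stood at 95.7 ± 31.2 and 143 ± 61.6 TPM, and Gstp1, the most abundant, at 2800 ± 35.1 and 2440 ± 382. Cyb5a was at 316.31 TPM in A10KO replicate 14 and at 75.74 to 125.73 TPM in the other libraries, and without replicate 14 its difference turned from 0.10 to -0.54. Its means were 120 ± 9.59 and 160 ± 135 TPM.

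Among the PARP relatives of Tiparp, a list that also holds a pair of macrodomain genes, 12 of 16 tested genes were below 0 (6813 of 12068 over all tested genes), with 0 called and a median of -0.19. The largest differences were those of Parp12, Parp9 and Parp10, which are known as interferon-responsive members of the family. Parp9 was at 5.49, 6.66 and 6.76 TPM in WT replicates 1, 2 and 3 and at 3, 1.96 and 2.74 TPM in A10KO replicates 1, 13 and 14 (difference -1.04, SE 0.21, limma adjusted p = 0.215). Parp12 stood at 21.9 ± 3.63 and 10.3 ± 3.64 TPM, a difference of -1.05 (SE 0.25), and Parp10 at 11.2 ± 0.825 and 5.73 ± 1.95, a difference of -0.90 (SE 0.24). For these 3 of the 16 genes A10KO was lower without overlap, against 11.5% of all tested genes. Parp1, the main DNA damage enzyme of the family, stood at 80.8 ± 3.13 and 80.2 ± 2.55 TPM. Parp3, Zc3hav1 and Tnks2 stood at 28.8 ± 3.05 and 22.2 ± 3.53, at 37.1 ± 1.92 and 32 ± 5.06, and at 30.4 ± 5.32 and 34.4 ± 10.5 TPM.

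Other receptors of foreign chemicals and their partners gave 0 calls among 6 tested, with a median of -0.12. The xenobiotic receptors Nr1i2 and Nr1i3 were at 0.15 TPM or less. Keap1, which restrains NRF2, stood at 22.5 ± 1.36 and 26.9 ± 0.339 TPM (difference 0.25, SE 0.13, limma adjusted p = 0.627). It was the 1 gene of the 6 without overlap, with A10KO higher, against 5.61% of all tested genes. Vdr, the vitamin D receptor, stood at 1.72 ± 0.792 and 1.32 ± 1.21 TPM. Rxra, Rxrb, Nr1h2 and Ppard stood at 33.5 ± 1.37 and 29.9 ± 6.57, at 37.8 ± 3.32 and 36.5 ± 7.59, at 76.4 ± 4.81 and 65.7 ± 10.5, and at 34.5 ± 4.11 and 33.9 ± 8.16 TPM.

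Counts without adjustment were also small. At an unadjusted limma p under 0.05 there were 3 genes of the PARP list, 1 each of the coregulator, further target, P450 partner and HIF lists, and 0 of the other 5 lists, beside 1066 of the 12068 tested genes.

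**Figure D4:**
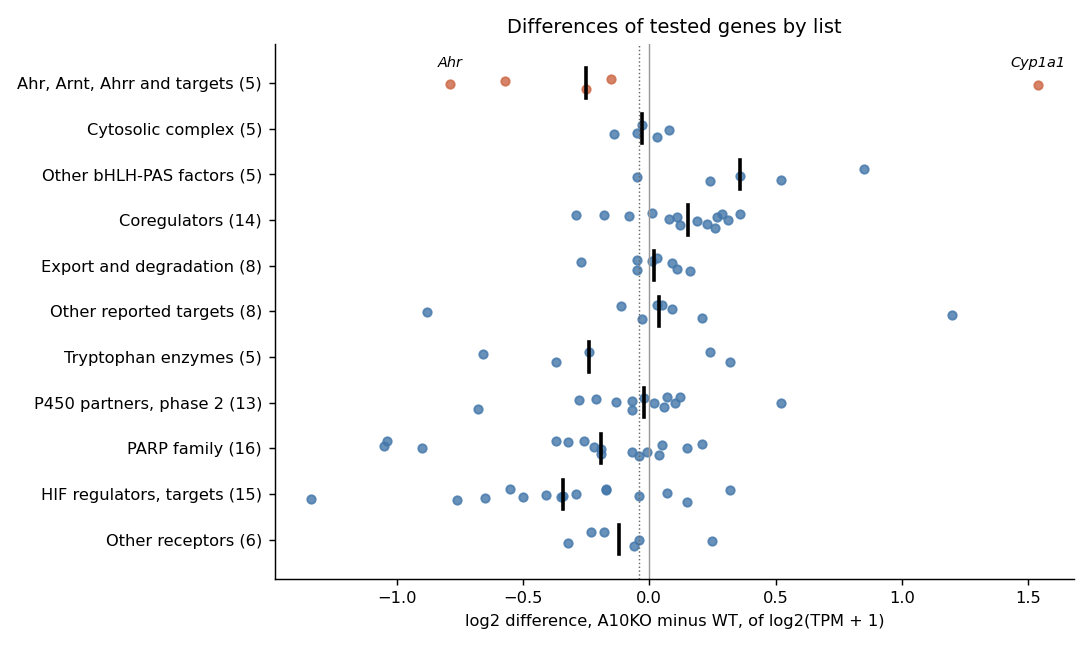
Log2 difference, A10KO minus WT, on the log2(TPM + 1) scale (x axis) for each tested gene of each list (y axis, number tested in brackets). Points are genes, black bars are list medians, and the dotted line is the median over all tested genes, -0.04. Cyp1a1, at 1.54, lies farthest to the right of the genes plotted.

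Among P450 genes as a family, a group taken by symbol after the values were seen, 100 rows carried a Cyp symbol, 31 were at 0 throughout and 13 were tested. Their median difference was -0.04. Cyp1a1 had the largest difference of the 13. The next was Cyp4f13, at 2.86, 5.71 and 4.39 TPM in WT and 2.75, 3.01 and 25.85 TPM in A10KO replicates 1, 13 and 14, high in replicate 14 alone. Cyp27b1, which activates vitamin D, was the other gene of the 13 with A10KO higher and no overlap, at 1.33, 0.88 and 1.22 TPM in WT and 1.9, 1.77 and 2.13 TPM in A10KO. These 2 of the 13 stand beside 5.61% of all tested genes. Of the 13, 1 was lower in A10KO without overlap, beside 11.5% of all tested genes.

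Genes around Cyp1a1 had differences near 0. Of the genes with a start within 250 kb on either side, 12 were tested and 0 were called, with a median of -0.05 and a range from -0.26 to 0.27. Csk, a kinase gene on 1 side, stood at 82.22, 69.61 and 85.54 TPM in WT and 83.2, 60.53 and 79.51 TPM in A10KO replicates 1, 13 and 14. Arid3b, the 1 neighbour of the 12 with A10KO higher and no overlap (5.61% of all tested genes), had a difference of 0.11 (SE 0.19). Edc3, an mRNA decapping gene on the other side, had a difference of -0.17 (SE 0.18). Around Arnt the 13 tested neighbours had a median of -0.24, with 2 lower in A10KO without overlap (11.5% of all tested genes). Arnt itself was at -0.25, or -0.09 without WT replicate 2, and the neighbours were not refitted as a set without that library. Around Ahrr the 10 tested had a median of -0.14, with 1 lower without overlap (11.5% of all tested genes). Tiparp and Cyp1b1 had 2 tested neighbours each, with medians of -0.47 and 0.15. Those of Tiparp were Ssr3, at -0.07, and Gm37009, at -0.87 with only 0 to 2.6 TPM per library. No gene within that distance of Ahr was tested.

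**Figure D5:**
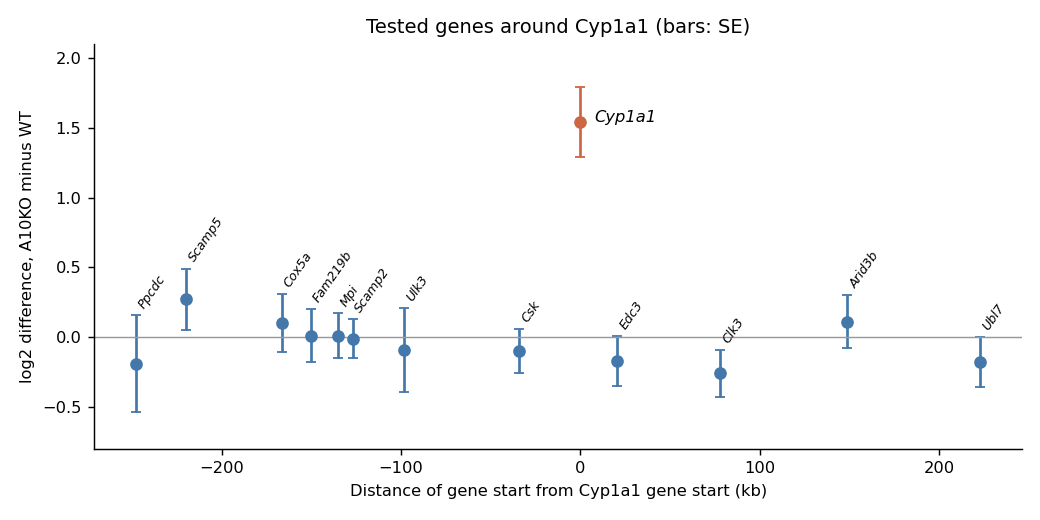
Log2 difference, A10KO minus WT, with its SE (y axis) for the 12 tested genes within 250 kb of Cyp1a1, by distance of their start from that of Cyp1a1 in kb (x axis). Neighbours lie between -0.26 and 0.27, and Cyp1a1 lies at 1.54.

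Genes with the most similar profiles were found by the root-mean-square distance between log2(TPM + 1) profiles over the 6 libraries, each centred on its own mean. Nearest to Cyp1a1 were Car6, at 27.74, 28.82 and 27.38 TPM in WT and 47.34, 97.69 and 68.42 TPM in A10KO replicates 1, 13 and 14 (distance 0.22), Scrg1 (0.23) and Id1 (0.24). Nearest to Ahr were Ndrg1 (0.15), Usp22 (0.18) and Gm20662 (0.18). Nearest to Arnt were Arhgef10, Gm20667 and Gstz1 (0.04 each), and to Tiparp Fat2 (0.02), Ttc23 (0.03) and Iqgap1 (0.04). The genes nearest to Ahrr were Lsmem2 (0.16), Gm14680 (0.23) and Aldh1l1 (0.24). The distances are to be read against each member's own variation about its mean, which was 0.80 for Cyp1a1, 0.63 for Ahrr, 0.61 for Ahr, 0.23 for Arnt and 0.16 for Tiparp.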

How the data were processed

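RNA of 6 B16F10 libraries, 3 WT and 3 A10KO, was measured. Cells were lysed in Trizol and the RNA was cleared of DNA with DNase I, per the labels' protocols. The submitters' processing notes name fastp, HISAT, RSEM and GRCm38.p5, without versions, settings or strand handling. The deposited values are TPM, as read from their decimals and their sums of 969834 to 985045 per library, although the table is presented as raw counts. TPM keeps no depth. In 6 of 6 cases a library's own deposited table equalled its column of the series table.

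Differences came from limma 3.58.1 in R 4.3.3 with a mean-variance trend on log2(TPM + 1), over the 12068 genes that reached 1 TPM in 3 or more libraries. P-values were adjusted by Benjamini-Hochberg over all of them, with a threshold of 0.05. The fit was tested on simulated data with equal spread in both groups. The libraries spread unequally, so that test does not measure how often true differences would be called here. Adjusted p-values are printed for genes other than the members. Coordinates are from GENCODE M21 on GRCm38. The members and lists were chosen with earlier results of these data known. Named were the members and, per pathway list, up to 4 called genes or else the 3 most abundant, and the 4 tested genes with the largest differences. For each tested member the 3 nearest profiles were also named. Other named genes, among them Cd68, Ptprc and Fcer1g, were chosen after their values were seen, and marker lists are otherwise given by counts. Alternatives were other pseudocounts, filters, scalings, array quality weights and leaving out each library. Some genes of the lists count in the totals but are not reported here by name.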

Additional observations from a re-analysis of the deposited data

How the results depend on the processing

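No paired analysis was possible because no pairing of WT with A10KO libraries is stated. Under 15 alternatives Cyp1a1 stayed between 1.42 and 2.05 and Ahr, Arnt, Ahrr and Tiparp stayed below 0 in each setting that kept them, the 5 TPM filter removing Ahr, Ahrr and Cyp1a1. With 0.1 TPM added in place of 1, Cyp1a1 was 2.05 and Ahrr -1.32. With 1 library left out the ranges were -1.05 to -0.45 for Ahr, -0.35 to -0.09 for Arnt, -0.90 to -0.20 for Ahrr, 1.42 to 1.76 for Cyp1a1 and -0.25 to -0.01 for Tiparp. The 5 genes called by limma among all tested became 3 with quantile normalization and 25 with array quality weights. In that last setting 1 member, Cyp1a1, was called, and 0 members were called in the main fit and under each other alternative. As the members were chosen on this comparison, the call is no evidence about Cyp1a1. With 1 library left out the count over all tested genes ran from 2 to 8, at 2 without WT replicate 1 or 2, 3 without WT replicate 3 and 8 without A10KO replicate 1. The cause was not tested. In the pathway lists 0 genes were called under every alternative run. Calls were also few over all tested genes, from 2 to 25 under the alternatives, so nothing is read from this.

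Of the 55 genes named by the rule for the pathway lists, 22 changed sign in at least 1 setting, none of them called. Genes named in other ways are not covered by this count. Under median-of-ratios scaling Parp1 was 0.03 and Ppard 0.0013, and under trimmed-mean scaling Parp1 was 0.02. Quantile normalization gave Ddb1 0.02, Parp1 0.04 and Src 0.0019. With mitochondrial genes removed, Ddb1 was 0.0045, Parp1 0.04, Ppard 0.01 and Src 0.01. Array quality weights gave Gsta2 0.82, Ppard 0.03, Ptges3 -0.01, Rxrb 0.01 and Src 0.08. With 1 library left out the ranges were Cul4b -0.08 to 0.24, Cyb5a -0.54 to 0.48, Gsta1 -0.19 to 0.78, Gsta2 -0.89 to 0.65, Hif1a -0.15 to 0.72, Hsp90ab1 -0.0028 to 0.13, Ncoa1 -0.15 to 0.55, Ncoa2 -0.07 to 0.53, Ncor1 -0.17 to 0.38, Nfe2l2 -0.11 to 0.26, Parp1 -0.04 to 0.02, Ppard -0.22 to 0.10, Psmd1 -0.02 to 0.28, Ptges3 -0.03 to 0.08, Rbx1 -0.09 to 0.31, Rxrb -0.20 to 0.09, Slc7a5 -0.05 to 0.20, Src -0.21 to 0.17, Tnks2 -0.08 to 0.28 and Vdr -0.72 to 0.04. TPM gives no depth, so values under 1 TPM have an unknown precision.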

Other observations

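The lists kept as signs of handling and of other cells differed between the groups in part, and their part in the values above was not tested. Of 10 immediate early genes, 8 were tested and 0 called, with 3 lower in A10KO without overlap (11.5% of all tested genes) and a median log2 difference of -0.55. Their summed level was 122 to 150 TPM in WT and 79.4 to 84.6 TPM in A10KO. Of 8 leukocyte markers 1 was tested, and the list summed to 3.02 to 5.31 TPM in WT and 1.08 to 2.23 TPM in A10KO, with Tyrobp, Cd3e and Adgre1 at 0 throughout. The 1 tested was Cd68, at 2.42, 4.7 and 4.8 TPM in WT and 1.29, 0.89 and 0.86 TPM in A10KO. Ptprc was at 0.01 TPM or less, and Fcer1g had the higher mean in A10KO, 0.56 against 0.367 TPM. Of 8 fibroblast markers 2 were tested, and the list summed to 6.52 to 8.96 TPM in WT and 2.61 to 6.04 TPM in A10KO, with Lum and Dpt at 0 throughout. Of 13 mitochondrial transcripts 10 were tested and 0 called, with a median of 0.64 and 8 higher in A10KO without overlap (5.61% of all tested genes).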
